A study of Mus musculus with 2 samples.

Results

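Axin2-positive alveolar type 2 (AT2) cells are here the AT2 cells of mouse lung in which at least 1 Axin2 molecule was counted. Barcodes were taken as AT2 cells when they held at least 500 genes, at most 20% mitochondrial unique molecular identifiers (UMIs), at least 5000 UMIs and at least 10% of their UMIs from Sftpc, the surfactant protein C gene. Of 18938 barcodes in the series 13772 met these limits, and 3147 of them carried an Axin2 UMI and are the members described here. Each was set against AT2 cells of the same library with 0 Axin2 UMIs and similar total UMIs, of which 6294 were used. The cells came from lungs of male mice and were sorted as EpCAM+ cells lacking CD31, CD34, CD45, CD24 and Sca-1. One library is labelled WT and 1 is labelled IP-/- (IPKO), the deletion of the prostaglandin I2 receptor, whose gene is Ptgir. The labels give no age, injury, treatment or number of mice, and do not describe how the deletion was made.

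Axin2 encodes a scaffold protein of the complex that marks beta-catenin for destruction. Canonical Wnt ligands, bound by Frizzled receptors with the co-receptors Lrp5 and Lrp6, stop that destruction, and beta-catenin then acts with TCF and LEF factors on target genes. Axin2 is itself such a target and works as a brake on the pathway, so its expression is widely read as a sign of canonical Wnt signalling. In the lung, Wnt-responsive AT2 cells marked by Axin2 have been described as alveolar progenitors, which renew AT2 cells and also form alveolar type 1 (AT1) cells, the thin cells of gas exchange. Because 1 Axin2 UMI chose the members, their Axin2 level is a description, and Axin2 was left out of every comparison between genes.

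The library labelled WT held 1401 Axin2-positive cells among 6392 AT2 cells, or 21.9% (exact Clopper-Pearson 95% interval 20.9 to 23.0). The library labelled IPKO held 1746 among 7380, or 23.7% (22.7 to 24.6). These intervals, and all others below, cover counting error only, since each label has 1 library and no test between the labels is possible. The Axin2 gene (ENSMUSG00000000142) lies on chromosome 11 at 108920349 to 108950783, plus strand, of GRCm38. Over all AT2 cells it gave 1681 UMIs, or 13.8 CPM (counts per 1000000 UMIs, Poisson interval 13.2 to 14.5), in the library labelled WT. It gave 2121 UMIs, or 16.2 CPM (15.5 to 16.9), in the library labelled IPKO, a log2 ratio of 0.23 (0.14 to 0.33) over the library labelled WT. Low counts made up the group: 1157 members (82.6%) labelled WT and 1424 (81.6%) labelled IPKO had exactly 1 Axin2 UMI, and no cell had more than 6 and 4.

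The share of cells with an Axin2 UMI followed how deeply a cell was sequenced. In the library labelled WT it was 16.7% in the 10% of cells with the fewest UMIs and 31.9% in the 10% with the most, and in the library labelled IPKO it was 12.6% and 32.2%. Axin2 CPM did not climb with depth in the same way, at 18.7 and 13.3 CPM in those end groups labelled WT and at 14.4 and 15.4 CPM labelled IPKO. After each cell was thinned to 5000 UMIs, 6.59% of cells labelled WT (5.99 to 7.22) and 7.53% labelled IPKO (6.94 to 8.16) kept an Axin2 UMI. A cell with 0 Axin2 UMIs is therefore not shown to lack the gene.

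A single common Axin2 level in every AT2 cell, with the depths these cells had, would give 1463.2 members labelled WT and 1821.6 labelled IPKO, somewhat more than the 1401 and 1746 counted. The surplus of observed cells lay at higher counts. With 2 UMIs there were 215 cells against 176.7 at a common level in the library labelled WT, and 274 against 237.6 in the library labelled IPKO. With 3 or more there were 29 against 19.6 and 48 against 29.4. A second view used UMIs that had no part in choosing the cells: cells were chosen by an Axin2 UMI within their 5000 thinned UMIs, and Axin2 was then counted in their remaining UMIs. In the library labelled WT the 421 cells so chosen held 19.9 CPM (16.5 to 23.9) in the rest, against 13.3 (12.5 to 14.1) in the others, a ratio of 1.497 (1.23 to 1.81). In the library labelled IPKO the 556 chosen cells held 18.8 CPM (15.7 to 22.3) against 16.2 (15.3 to 17.0), a ratio of 1.16 (0.964 to 1.39), an interval that includes 1. Carrying an Axin2 UMI thus went with a modestly higher level of the gene in the library labelled WT, and in the library labelled IPKO a higher level was not detectable at this depth.

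**Figure D1:**
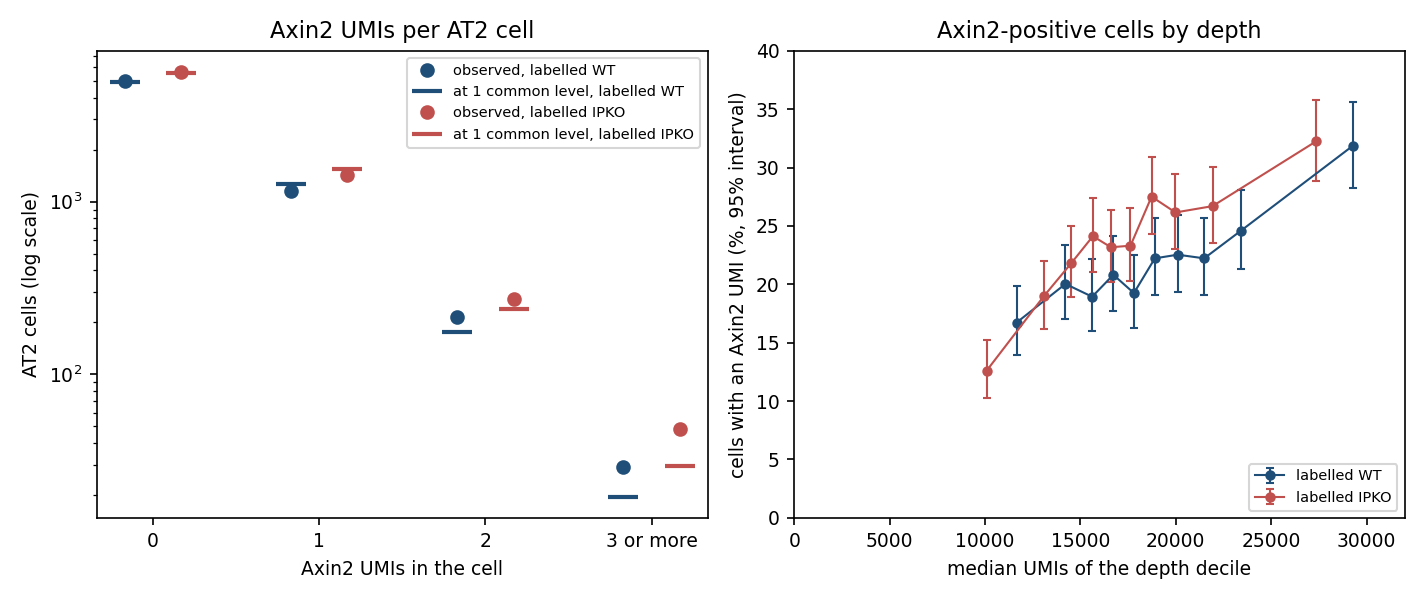
Left, AT2 cells (log scale) by the number of Axin2 UMIs they held, as counted (points) and as a single common Axin2 level in all cells of a library would give (dashes). Right, the percent of AT2 cells with an Axin2 UMI in each 10% of cells by total UMIs, with exact 95% intervals; it goes from 16.7% to 31.9% in the library labelled WT and from 12.6% to 32.2% in the library labelled IPKO.

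Axin2 molecules were also found outside AT2 cells. Barcodes with an Sftpc share under 5% and at least 3 UMIs of immune markers were taken for comparison as another cell type. These immune-marked barcodes had an Axin2 UMI in 1 of 36 cells (2.78%, 0.0703 to 14.5) labelled WT and in 11 of 172 (6.40%, 3.24 to 11.2) labelled IPKO. Their median depths were 5876.5 and 5676 UMIs against 18327 and 17112 in AT2 cells. Thinned to 5000 UMIs, the share was 0 of 20 immune-marked cells labelled WT, which allows up to 16.8%, and 8.08% of 99 (3.55 to 15.3) labelled IPKO, not below the 7.53% of AT2 cells there. At that depth the share of AT2 cells labelled IPKO was thus not above that of immune-marked barcodes, and no single cell is called an Axin2-expressing cell from 1 UMI. Free RNA was not measured and doublets were not removed, and their part in these shares was not tested. In CPM the immune-marked cells held 3.37 CPM (0.0853 to 18.8) and 10.8 CPM (5.78 to 18.6), and the few barcodes with mesenchymal markers held 44.9 CPM (12.2 to 115) and 53.9 CPM (19.8 to 117). Barcodes with endothelial markers held 19.5 CPM (8.92 to 37.0) labelled WT and 35.9 CPM (15.5 to 70.7) labelled IPKO. The interval of mesenchymal-marked cells labelled IPKO lay above the AT2 level of 16.2 CPM, but it rested on 6 UMIs in 18 barcodes. Whether Axin2 differs between cell types was not tested.

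At the edges of the rule, 3 members labelled WT and 5 labelled IPKO had 5000 to 6000 UMIs, and 4 and 2 had an Sftpc share of 10 to 11%. Just outside it, 1 and 4 cells with an Axin2 UMI had 4000 to 5000 UMIs, and 4 and 8 had an Sftpc share of 9 to 10%. The members carried the defining genes of AT2 cells. Sftpb, a surfactant protein gene, stood at 10430.2 CPM in members labelled WT and 9336 labelled IPKO, Lamp3, of the lamellar body, at 1676 and 1533, and the lung transcription factor gene Nkx2-1 at 322.8 and 383.7. Median total UMIs were 19128 in members and 18998.5 in matched cells labelled WT, and 17965 and 17902 labelled IPKO. Members had slightly more genes detected, a median of 3489 against 3429 labelled WT and 3464.5 against 3410 labelled IPKO. Mitochondrial shares were alike, with medians of 5.25% and 5.24% labelled WT and 3.93% and 3.92% labelled IPKO. In the 10% of cells with the most UMIs the matching left a gap, with medians of 30465 in members and 28533 in matched cells labelled WT and 29212 and 26564.5 labelled IPKO.

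The libraries themselves limit what the labels can carry. Ptgir gave 0 UMIs in members and matched cells labelled WT, where 3 counts would be 0.106 CPM in members. It gave 87 UMIs (2.62 CPM) in members and 162 (2.49 CPM) in matched cells labelled IPKO, against the direction of the label. The 3' kit counts only transcript ends, and the labels do not say which part of the gene is deleted. The cause of the Ptgir counts was not tested in either library. Whether the labels were exchanged was not tested, an exchange would turn every direction given between the libraries, and the libraries are called by their labels throughout. The libraries held 127287281 and 137471506 UMIs, and 79 barcode sequences occurred in both, 12 of them among AT2 cells and 1 among members. No doublet caller was used.

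Which AT2 cells hold more Axin2 was read from groups cut without it. Within each library all AT2 cells were ranked by the share of their UMIs in a gene list, and Axin2 CPM was taken in the lowest and the highest 20% of cells. Axin2 was higher where immediate early genes were higher: with the share of AP-1 and immediate early genes (Fos, Jun, Egr1 and others that respond within minutes to signals and stress) it went from 11.3 to 16.4 CPM labelled WT and from 12.9 to 19.0 labelled IPKO. The log2 ratios of highest to lowest were 0.53 (0.31 to 0.76) and 0.56 (0.36 to 0.77). Ranked by heat shock genes, the ratios were 0.60 (0.38 to 0.83) and 0.35 (0.15 to 0.55). Ranked by genes of the transitional state between AT2 and AT1 cells, such as Krt8, they were 0.30 (0.07 to 0.53) and 0.39 (0.19 to 0.59). Each of these 3 lists gave an interval above 0 in both libraries. Ranked by AT1 genes the ratios were 0.10 (-0.13 to 0.32) and 0.24 (0.04 to 0.43), and by surfactant and AT2 identity genes -0.17 (-0.40 to 0.05) and -0.31 (-0.51 to -0.11).

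Ranks by Wnt pathway components gave ratios on the same side of 0. Cells with a larger share of Wnt receptor UMIs held more Axin2, with ratios of 0.40 (0.17 to 0.63) labelled WT and 0.40 (0.19 to 0.60) labelled IPKO. For the cytoplasmic components, among them Ctnnb1, Apc and Gsk3b, the ratios were 0.41 (0.18 to 0.64) and 0.52 (0.31 to 0.73), and for nuclear factors 0.24 (0.01 to 0.46) and 0.22 (0.02 to 0.43). Ranked by the Sftpc share, Axin2 went the other way, from 16.2 to 11.05 CPM labelled WT and from 17.8 to 13.8 labelled IPKO, ratios of -0.56 (-0.79 to -0.33) and -0.37 (-0.57 to -0.16). Sftpc alone gave 20.8% of the members' UMIs in each library, and CPM of other genes are lower where its share is high. With Sftpc left out of the totals these ratios were -0.36 (-0.59 to -0.13) and -0.18 (-0.39 to 0.02), while those for immediate early genes stayed at 0.50 (0.27 to 0.73) and 0.52 (0.32 to 0.73) and those for Wnt receptors at 0.36 (0.13 to 0.58) and 0.35 (0.15 to 0.56). For nuclear factors the intervals then reached below 0, at -0.02 and -0.01. MHC class II genes, which mark antigen-presenting capacity in AT2 cells, gave 0.15 (-0.07 to 0.38) and -0.08 (-0.27 to 0.12), no detectable difference in either library. Ranked by total UMIs, Axin2 CPM gave -0.39 (-0.61 to -0.17) labelled WT and -0.10 (-0.31 to 0.12) labelled IPKO. Depth moved with some of these ranks: median UMIs were 19410 and 16936 in the lowest and highest 20% of cells by immediate early share labelled WT, and its part in the ratios was not tested.

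**Figure D2:**
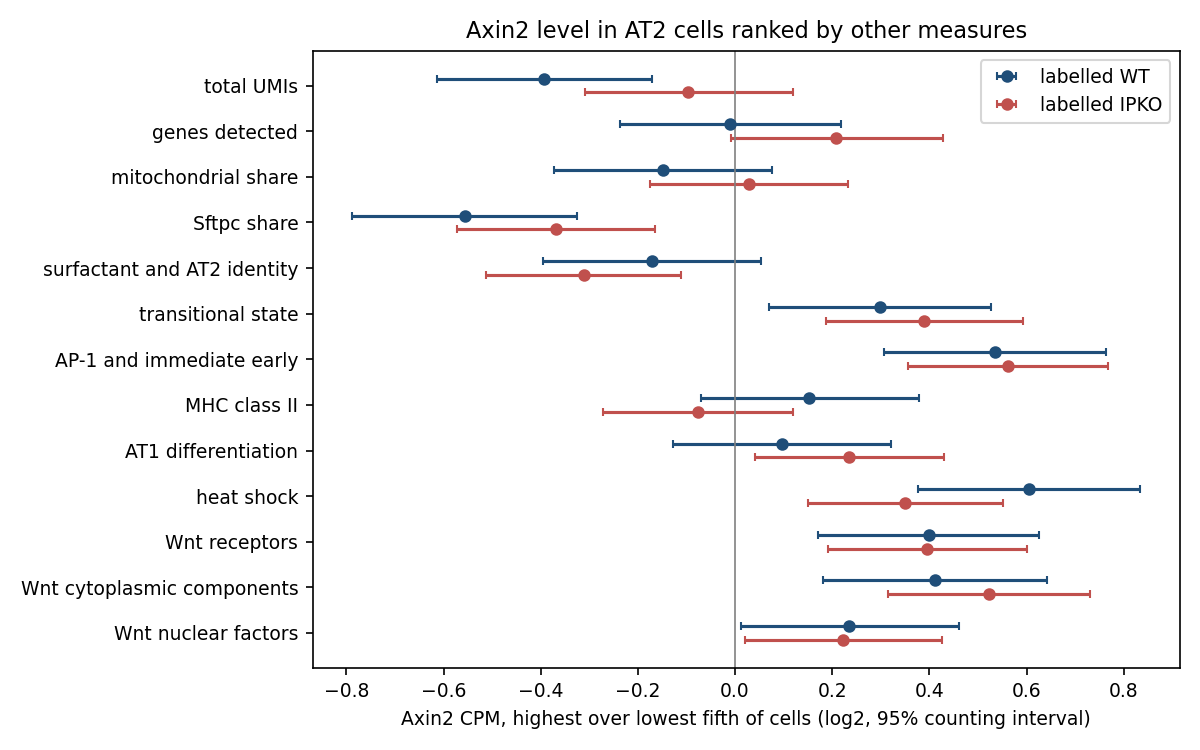
Axin2 CPM in the highest over the lowest 20% of AT2 cells ranked by each measure (log2, 95% counting interval) in the library labelled WT (blue) and labelled IPKO (red). Immediate early, heat shock, transitional and Wnt component shares lie above 0 in both libraries and the Sftpc share below 0.

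Between Axin2-positive cells and matched Axin2-negative cells, 8522 genes were tested, those whose mean over the sums reached 5 CPM. Few genes differed, and by small amounts. The test was edgeR's quasi-likelihood test on the 4 sums of counts (positive and matched cells in each library) with library as a block, with Benjamini-Hochberg adjustment and a threshold of 0.05. It called 55 genes higher (0.645% of those tested) and 179 lower (2.10%) in Axin2-positive cells. The median size of the called changes was 0.08 on the log2 scale, 87.2% of all tested genes lay within 0.1 of 0, and 6 called genes changed by at least 0.32 on the log2 scale, 4 higher and 2 lower. All 55 genes called higher and 158 of the 179 called lower had the same sign of the raw CPM ratio in both libraries. Over all tested genes 63.1% did. Measured instead from the median ratio of each library, 232 of the 234 called genes lay on the same side in both. The calls came from a fit to these same libraries, so the shared sign is not a separate check. As a description across genes, which are not independent, the ratios of the libraries correlated with Pearson's r of 0.13 over all tested genes and 0.64 over the 896 genes of at least 100 CPM.

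The counts of calls rest on the design. Only 2 libraries stand behind them, with 1 residual degree of freedom, and without library as a block the same test called 0 genes in either direction (6 higher and 2 lower at an unadjusted p under 0.05). DESeq2 called 1 higher (0.0117%), Thbs1, and 13 lower (0.153%). The raw ratios were centred above 0, with medians of 0.04 in both libraries. Scaled to total UMIs instead of by the trimmed mean of M values (TMM), the test called 399 genes higher (4.68%) and 30 lower (0.352%). Higher and lower calls are therefore relative to the typical gene, and their split depends on the scaling.

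**Figure D3:**
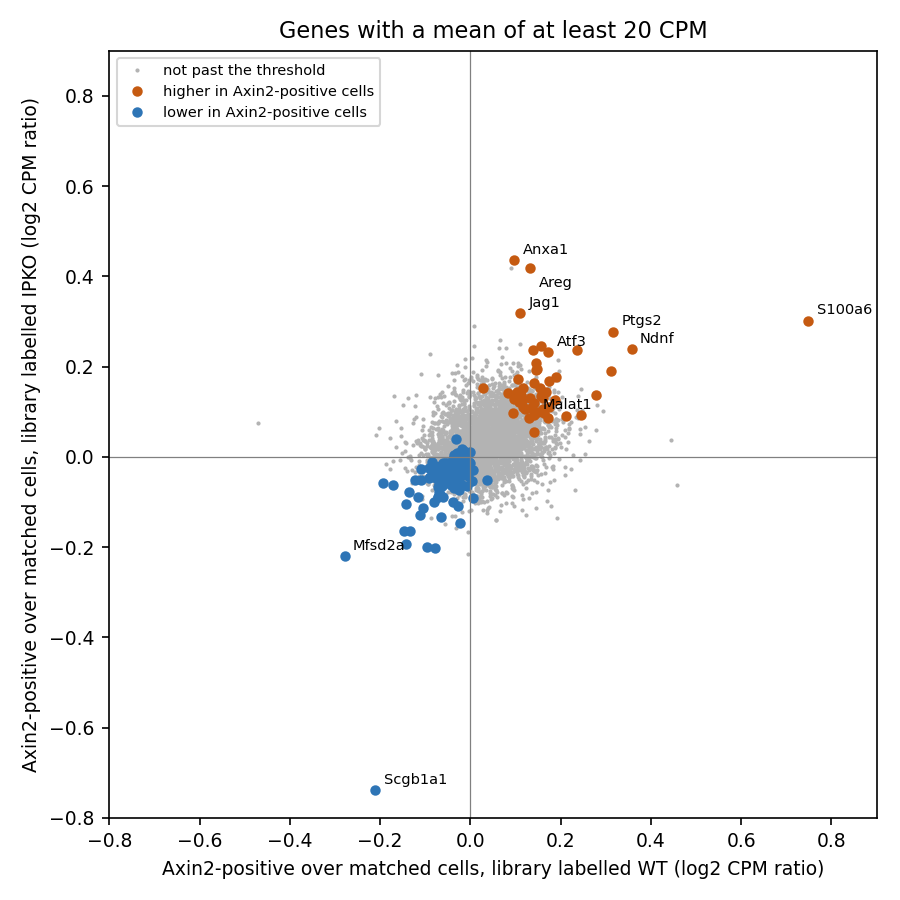
Log2 CPM ratio of Axin2-positive over matched cells in the library labelled WT (horizontal) and the library labelled IPKO (vertical) for genes averaging 20 CPM or more. Grey points did not pass the threshold, and orange and blue points were called higher and lower in Axin2-positive cells by edgeR; most points lie close to 0, with S100a6 and Scgb1a1 farthest out.

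No Wnt pathway gene passed the test in the fit reported here. Across 56 measured genes of the Wnt lists edgeR called 0 higher and 0 lower, against 0.645% and 2.10% of all genes tested. At such shares few calls would fall among 56 genes, so the 0 does not set Wnt genes apart. At an unadjusted p under 0.05 there were 7 higher and 2 lower of the 56, where all genes tested gave 5.42% higher and 8.27% lower, and 3 of the 7 were among the 10 feedback targets. The higher share thus lay above that of all genes and the lower share below it, with no set test. Axin2 itself differed little in UMIs that had not chosen the cells, by ratios of 1.497 labelled WT and 1.16 labelled IPKO. How far target genes would move with such a difference was not tested. DESeq2 called 0. The median log2 fold change was 0.03, with 38 genes above 0 and 18 below, beside a median of -0.0011 over all genes. Values ran from -0.09 for Tle3, a corepressor, to 0.19 for Tnks, a tankyrase that promotes Axin turnover, with a median SE of 0.05. The lowest adjusted p among them was 0.0672, for Aes. Of the 17 other settings 6 called a Wnt gene. Tnks was called higher in 5 of them, at 0.23 to 0.32, and not in the other 12. Csnk1a1 was called higher in 2 settings, and Aes was called lower in 3 and Ccnd1 in 1. When scaled to total UMIs, 5 were called higher (Cd44, Bcl9, Wls, Ryk and Csnk1a1), where 4.68% of all genes were.

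Of 23 feedback targets, genes that canonical Wnt signalling induces in many tissues, 10 were measured. The list was 0.06 at its median. Nkd1, an inducible inhibitor, stood at 129 CPM in members and 127 in matched cells labelled WT and at 101 and 99.6 labelled IPKO. The groups lay within a few percent of each other, and its log2 fold change was -0.02 (SE 0.02). Notum, which inactivates Wnt ligands, stood at 10.1 and 8.96 CPM labelled WT and at 11.4 and 11.2 labelled IPKO (0.05, SE 0.07). Rnf43, a ligase that removes Frizzled receptors, stood at 12.5 and 11.3 CPM labelled WT and at 17.2 and 14.5 labelled IPKO. Members were above matched cells in both libraries, by 0.16 (SE 0.06), with an edgeR adjusted p of 0.191. Its paralogue Znrf3 stood at 27.0 and 25.7 CPM and at 27.5 and 24.6 (0.08, SE 0.05).

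The remaining measured targets were not called either. Sp5, a transcription factor gene, stood at 21.2 and 20.2 CPM labelled WT and 28.9 and 29.5 labelled IPKO. Ccnd1, the cyclin D1 gene, stood at 98.0 and 98.7 and at 100.4 and 101.8 CPM (-0.05, SE 0.02). Log2 fold changes were -0.02 for the BMP pseudoreceptor gene Bambi, 0.06 for the Dickkopf receptor gene Kremen1, 0.07 for Cd44 and 0.10 for Tcf4. Lgr5, a stem cell marker of other epithelia, had 0 UMIs in members of both libraries and 1 in matched cells of each. Lef1 had 1 UMI in members and 0 in matched cells labelled WT, and 13 and 9 labelled IPKO. Tcf7 had 19 and 55 UMIs labelled WT and 48 and 63 labelled IPKO, counted over 2 matched cells per member. None of these genes reached the level at which genes were tested.

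Upstream in the pathway, genes of ligand release and reception were expressed and none was called. Wls, needed for Wnt secretion, stood at 166 and 157 CPM labelled WT and at 169 and 162 labelled IPKO (0.03, SE 0.02). No Wnt ligand reached a mean of 5 CPM. The ligands with most UMIs were Wnt7b, with 3.07 and 2.34 CPM labelled WT and 6.36 and 5.82 labelled IPKO, and Wnt3a, with 2.82 and 2.81 and with 3.65 and 3.42. Of 18 receptor genes 11 were measured, 10 of them above 0, led by Ror1 at 0.12 (SE 0.08) and Ryk at 0.08 (SE 0.03). Fzd7 and Tspan12 were lowest, at 0.01 and -0.0044. None of 11 secreted inhibitors was measured at 5 CPM. The transducer Ctnnb1, beta-catenin, stood at 501 and 482 CPM labelled WT and at 486 and 472 labelled IPKO (0.01, SE 0.02). Among 19 cytoplasmic components Tnks and Dvl2 were highest, at 0.19 and 0.17, and Gsk3a and Cby1 lowest, at -0.07 and -0.05. Among 15 nuclear factors Bcl9 and Pygo1 were highest, at 0.16 and 0.08, and Tle3 and Med12 lowest, both at -0.09.

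**Figure D4:**
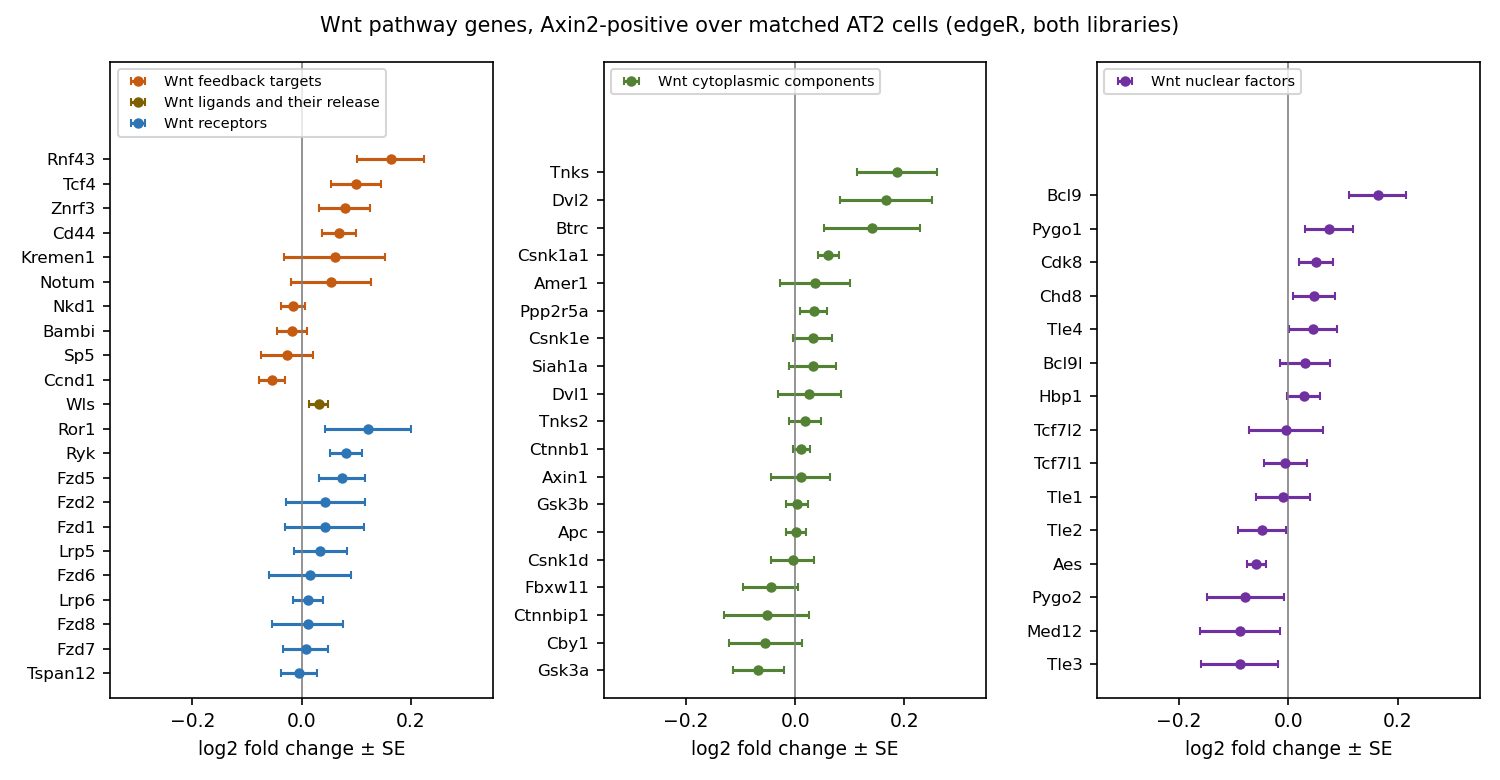
Log2 fold change (point) with its SE (bar) of Axin2-positive over matched cells for the 56 measured Wnt pathway genes, from the fit over both libraries. All lie between -0.09 and 0.19 and none passed the edgeR threshold.

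Thbs1 was the gene with the largest change. It encodes thrombospondin-1, a secreted matrix glycoprotein that can activate latent TGF-beta, and it was named after its values were seen, being under the 20 CPM of the naming rule. It stood at 20.3 CPM in members and 11.4 in matched cells labelled WT, and at 19.5 and 12.2 labelled IPKO. Members were above matched cells in both libraries, with counting intervals of the log2 ratio (0.67 to 1.00 and 0.52 to 0.83) above 0. The fitted change was 1.64-fold (log2 0.71, SE 0.06, edgeR adjusted p 5.38e-09). It was called in 16 of the 17 other settings tried, all of which reuse the same libraries. With members of at least 2 Axin2 UMIs it was 1.11 on the log2 scale. The 5 highest cells held 18.4% of its UMIs in members labelled WT and 16.7% in members labelled IPKO. Without the 5 highest cells of each group, the ratios were 0.72 and 0.55.

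Among the genes chosen by rule as most raised were Ptgs2, Atf3, Ndnf and Fam46a, each above its matched cells in both libraries. Ptgs2, the inducible cyclooxygenase of prostaglandin synthesis, stood at 28.1 CPM in members and 22.6 in matched cells labelled WT and at 33.1 and 27.3 labelled IPKO. Members were higher in both libraries, by a fitted 0.25 (SE 0.04, edgeR adjusted p 0.000928). Atf3, a stress-induced transcription factor gene, stood at 77.4 and 68.6 CPM labelled WT and at 166.3 and 142 labelled IPKO. It rose by 0.17 (SE 0.02, adjusted p 3.34e-06), though its level differed more between the libraries than between members and matched cells. Ndnf, a secreted factor gene, stood at 61.3 and 47.9 CPM and at 75.9 and 64.3 CPM (0.25, SE 0.03). Fam46a, a poly(A) polymerase gene, stood at 66.5 and 53.6 CPM and at 109.6 and 96.0 CPM (0.20, SE 0.03). Both rose, and both had ratio intervals above 0 in each library.

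Others were less even between the libraries. Areg, an EGF receptor ligand of tissue repair, stood at 27.6 and 25.1 CPM labelled WT and at 56.3 and 42.2 labelled IPKO (0.28, SE 0.05, adjusted p 0.0004). Its ratio was 0.13 (0.0046 to 0.26) labelled WT and 0.42 (0.33 to 0.50) labelled IPKO. Without the 5 highest cells of each group these were 0.06 (-0.08 to 0.20) and 0.35 (0.26 to 0.44). Anxa1, annexin A1, had 0.10 (-0.02 to 0.22) and 0.44 (0.33 to 0.54), with 5 cells holding 20.7% of its UMIs in members labelled WT, and Jag1, a Notch ligand, had 0.11 (-0.03 to 0.24) and 0.32 (0.21 to 0.43). Cftr, the chloride channel gene, leaned the other way, at 0.28 (0.18 to 0.38) and 0.14 (0.02 to 0.26), the latter 0.12 (-0.0031 to 0.24) without the 5 highest cells. Whether the libraries differ in these ratios was not tested, since 1 library per label leaves no degree of freedom for it. The remaining genes of the rule were Myo6, an unconventional myosin (0.20), the splicing factor gene Srek1 (0.17) and Skil, a repressor of TGF-beta signalling (0.15). Traf3ip1, named after its values were seen, rose by 0.36 (SE 0.09) at under 10 CPM.

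The calls of S100a6 and Sprr1a rested on few cells to a larger degree. S100a6, a calcium-binding protein gene, stood at 51.7 and 30.8 CPM labelled WT and at 33.5 and 27.2 labelled IPKO, a called rise of 0.50 (SE 0.06, edgeR adjusted p 2.78e-06). The 5 cells with most of its UMIs held 59.1% of them in members labelled WT and 41.7% in members labelled IPKO. Without those cells the ratios were -0.06 (-0.21 to 0.08) and 0.14 (-0.0048 to 0.28). With members of at least 2 Axin2 UMIs the direction turned, to -0.60. Sprr1a, an epithelial envelope protein gene named after its values were seen, was called at 0.70, while 5 cells held 92.3% of its UMIs in members labelled WT. With members of at least 2 Axin2 UMIs it stood at -2.29. Neither call thus describes the members at large.

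Among the genes that fell were secreted and lipid-handling products of AT2 cells. Apoc1, an apolipoprotein gene, stood at 271 CPM in members and 300.4 in matched cells labelled WT and at 180 and 201 labelled IPKO. It fell by 0.19 (SE 0.02, edgeR adjusted p 5.64e-08) and Apoe, the apolipoprotein E gene, by 0.15 (SE 0.02), from 465 to 432 CPM and from 607 to 561. Hp, the haptoglobin gene, stood at 908 and 997 CPM and at 693 and 731, and fell by 0.15 (SE 0.01). Lrg1, which encodes a secreted glycoprotein induced in inflammation, stood at 266 and 294 and at 214 and 245, and fell by 0.21 (SE 0.02). Itih4, an acute-phase gene, fell by 0.18 (SE 0.02). In all 5 the counting interval of the ratio lay below 0 in both libraries, and each was called lower in at least 15 of the 17 other settings. Mfsd2a, a carrier of lysophosphatidylcholine, stood at 36.8 and 44.6 CPM and at 13.7 and 15.9, and fell by 0.30 (SE 0.05).

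Scgb1a1, the club cell secretoglobin gene, showed the largest drop of the naming rule. It stood at 1118 CPM in members and 1294 in matched cells labelled WT and at 268 and 446 labelled IPKO. It fell by 0.48 (SE 0.05, edgeR adjusted p 7.31e-07), with ratios of -0.21 (-0.23 to -0.19) and -0.74 (-0.77 to -0.70). A single matched cell labelled IPKO held 6943 of its UMIs. Without the 5 highest cells of each group the ratios were -0.25 (-0.27 to -0.23) and -0.32 (-0.36 to -0.28). The summed club and ciliated markers stood at 1376 and 1554 CPM labelled WT and 580 and 748 labelled IPKO, a sum that holds Scgb1a1 itself. Scgb1a1 gave 31729 of its 39036 UMIs in members labelled WT and 8880 of 19236 in members labelled IPKO. The other 2 measured markers, Cyp2f2 and Tubb4b, were not called, at -0.08 and -0.01. The part of club cell RNA in the change of Scgb1a1 was not tested. Serpine2, Cd302, Cxcl17, Glrx5 and BC021614 were also called lower, by 0.15 to 0.20, and for BC021614, Cxcl17 and Glrx5 the ratio's interval included 0 in 1 library. Fam150a, named after its values were seen, fell by 0.45 (SE 0.09), with a ratio of -0.23 (-0.60 to 0.13) labelled IPKO, an interval that includes 0.

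**Figure D5:**
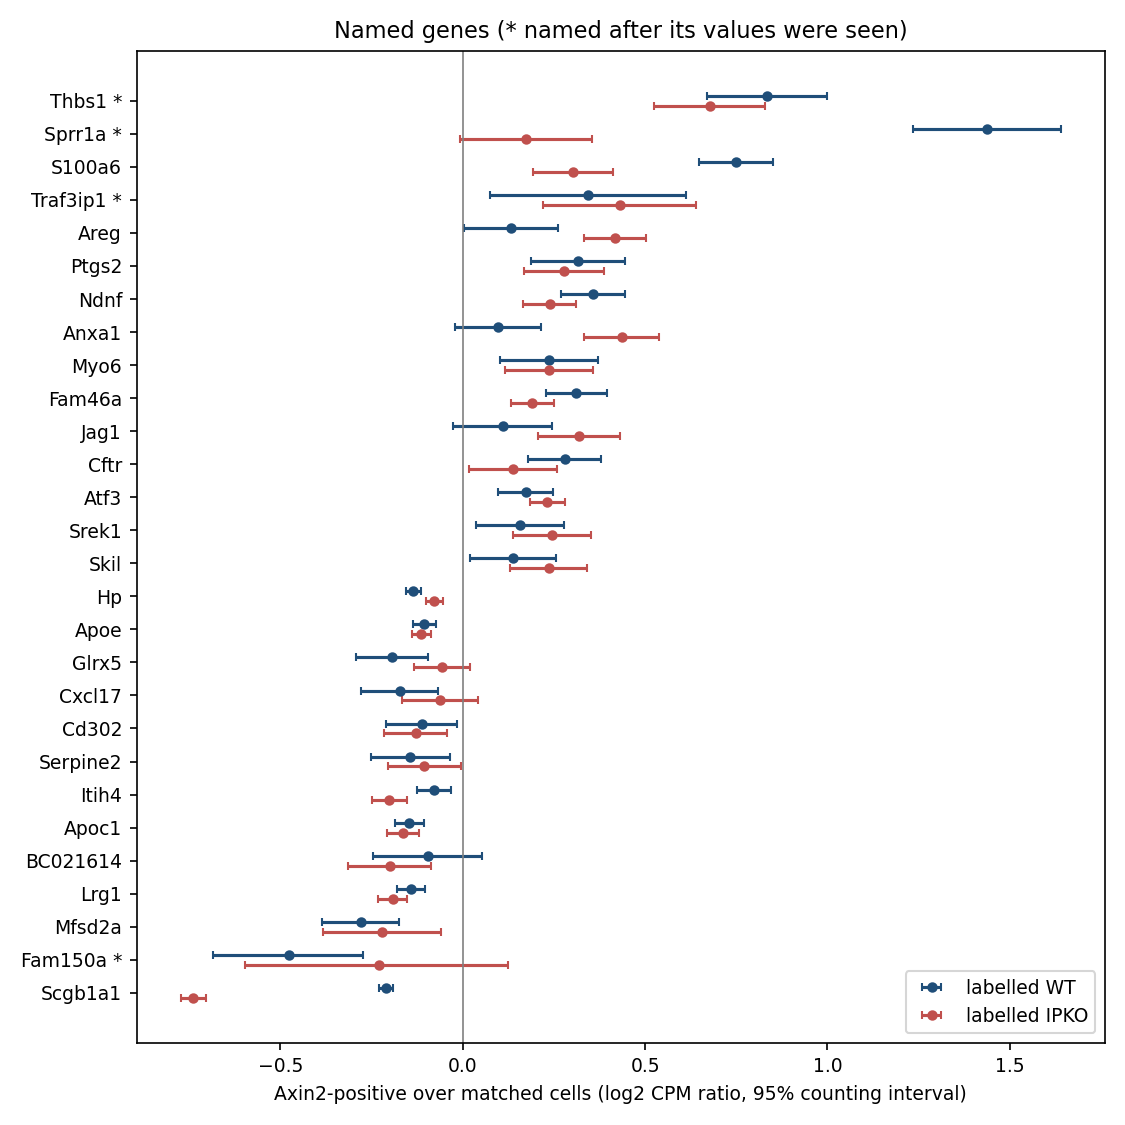
Log2 CPM ratio of Axin2-positive over matched cells with its 95% counting interval in the library labelled WT (blue) and labelled IPKO (red) for the 12 highest and 12 lowest genes of the naming rule and 4 genes named after their values were seen (*). Thbs1 lies well above 0 in both libraries, while Sprr1a, S100a6 and Scgb1a1 have ratios far apart in them.

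Immediate early genes held the most higher calls of the lists. Of 19 measured AP-1 and immediate early genes 8 rose and 0 fell (Atf3, Dusp1, Egr1, Fosb, Btg2, Fos, Zfp36 and Jun). Over all genes tested 0.645% were called higher and 2.10% lower. The median of the list was 0.06 beside -0.0011 over all genes. Dusp1, a phosphatase that switches off MAP kinases, stood at 155 and 137 CPM labelled WT and at 238.5 and 212 labelled IPKO, and rose by 0.13. Egr1 rose by 0.11 and Fos by 0.08. Jun, the AP-1 subunit named in the title of the series, stood at 817 and 741 CPM labelled WT and at 1480 and 1425 labelled IPKO. It rose by 0.06 (SE 0.02, edgeR adjusted p 0.047). Its raw ratios were 0.14 labelled WT and 0.05 labelled IPKO, and those of Zfp36 were 0.03 and 0.15, beside medians of 0.04 over all genes in both libraries. Over the 17 other settings the median of the list stayed between 0.04 and 0.13, while the number called went from 0 to 12. It was 0 with DESeq2, without the block and among the cells with less early-response share (below the median), where edgeR called 2 genes higher in all (Thbs1 and Ndnf). Those cells were chosen by the share of this same list, which itself narrows differences in it. They held only 649 members labelled WT and 822 labelled IPKO, so the 0 there is no separate check on the list.

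Of 16 transitional-state genes 5 rose and 0 fell, where 0.645% of all genes tested were called higher and 2.10% lower. The 5 were the keratins Krt8 (0.07) and Krt18 (0.09), and Anxa1, Areg and S100a6, and the median of the list was 0.09. The call of S100a6 rested on few cells, as given above. Lgals3, of the same list, stood at -0.04 without a call, was called lower in 8 of the 17 other settings, and reached -0.42 with members of at least 2 Axin2 UMIs. Krt8 stood at 125.5 and 116 CPM labelled WT and at 148 and 137.5 labelled IPKO. Leaving out the highest 20% of cells by transitional share, 0 of 14 still measured were called, the median was -0.0055, and Krt8 and Krt18 stood at -0.0058 and -0.0013. The cells left out were chosen by this same list. Such a cut itself narrows differences in the list, so these values are no separate check on it. Of 13 AT1 genes 1 rose (Lmo7, 0.07), with a median of -0.0081. Ager, a marker of AT1 cells, stood at 1043 and 1049 CPM labelled WT and at 1103 and 1092 labelled IPKO. Of 12 genes linked to alveolar progenitors 0 were called by edgeR or DESeq2 (2 higher at an unadjusted p under 0.05, which 5.42% of all genes were), with a median of 0.03, Klf5 highest at 0.10 and Bmpr1a lowest at -0.03.

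Of 22 surfactant and AT2 identity genes 10 fell and 0 rose, with a median of -0.04. Over all genes tested 2.10% were called lower and 0.645% higher. The 10 were Chil1, Sfta2, Scd1, Napsa, Lyz2, Cxcl15, Hc, Sftpb, Sftpd and Sftpa1, from -0.09 to -0.04. Nkx2-1 and Etv5 were highest, at 0.04 each. Sftpc, which the cell rule used and this list does not hold, fell by 0.07 (SE 0.0047), from 21.4% to 20.8% of summed UMIs labelled WT and from 21.2% to 20.8% labelled IPKO. Scaled to total UMIs 0 of the 22 were called lower and 3 higher, and the median was -0.0017, so these calls depend on the scaling. The raw CPM ratios of Sftpa1 and Sftpd were above 0 in the library labelled IPKO, at 0.0043 and 0.0080, though below its median ratio of 0.036. Of the 13 mitochondrially encoded genes 6 were called lower (median -0.04), with mt-Atp6 at -0.04, while mt-Nd6 stood at 0.06 without a call. Under total UMIs 0 were called and the median was -0.00017. In the library labelled IPKO the raw ratios of all 6 called genes (mt-Atp6, mt-Co1, mt-Co2, mt-Co3, mt-Cytb and mt-Nd2) were above 0, from 0.0061 to 0.018. These too lay below its median ratio of 0.036. Ribosomal protein genes, counted by name after the calls were seen, gave 36 lower of 92 tested and 0 under total UMIs. Nuclear genes of the respiratory chain gave 30 lower of 84, and 1 under total UMIs. The median level of the genes called lower was 383 CPM, against 87.4 for the higher calls and 21.1 over all genes tested.

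A few calls lay in other lists, beside 0.645% higher and 2.10% lower over all genes tested. Of 10 inflammatory genes 3 fell (Lrg1, Lcn2 at -0.11 and Il33, which stood at 0.012 with members chosen at 5000 UMIs), with Nfkbiz and Birc3 highest at 0.08 and 0.06. Of 18 fatty acid and sterol synthesis genes 1 rose (Chka, of phosphatidylcholine synthesis, 0.08) and 2 fell (Fdps at -0.11 and Elovl1 at -0.10). Jag1 was the called member among 6 Notch genes, Skil among 15 BMP and TGF-beta genes, where Id3 had 0.18 without a call, and Hsp90aa1 (0.06) among 17 heat shock genes. Malat1, a nuclear-retained RNA, rose by 0.08 and was the called member of 5 such RNAs. Of 8 interferon genes Ifi27 was called lower, at -0.06, with raw ratios of 0.04 labelled WT and -0.05 labelled IPKO.

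For 8 further lists edgeR called 0 genes. Among 16 p53 targets the median was 0.02, with 2 higher and 0 lower at an unadjusted p under 0.05. Trp53 stood at 10.2 and 10.7 CPM labelled WT and 10.1 and 9.42 labelled IPKO (-0.03, SE 0.08), Cdkn1a at 46.6 and 44.3 and at 46.8 and 44.7 (0.03, SE 0.03), and Mdm2 reached 0.12 (SE 0.05). Medians were -0.0035 for 9 S phase genes, 0.07 for 2 G2/M genes, -0.0015 for 20 unfolded protein response genes, -0.02 for 7 MHC class II genes, 0.03 for 9 FGF and EGF genes, 0.04 for 8 YAP and TAZ targets and 0.04 for 15 circadian genes. At an unadjusted p under 0.05 these 7 lists had between 0 and 2 genes in each direction, and DESeq2 called 0 in any of the 8. Proliferation genes thus showed no difference that passed the test, and most G2/M genes were too low to be measured.

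Markers of other cells were scarce in both groups. None of the endothelial, mesenchymal or immune markers reached 5 CPM. The summed endothelial markers, 6 genes, stood at 4.72 CPM in members and 1.55 in matched cells labelled WT and at 1.24 and 7.28 labelled IPKO. The summed mesenchymal markers, 7 genes, stood at 2.19 and 0.252 CPM and at 0.452 and 1.11, and immune markers at 3.56 and 3.67 and at 8.59 and 5.77. None of these markers was at 0 in the members of both libraries together. The endothelial and mesenchymal sums thus leaned to members in one library and to matched cells in the other. Leaving out cells with at least 3 such UMIs gave 93 genes higher and 204 lower.

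Between the libraries, members and matched cells are given side by side. Jun was 0.86 higher on the log2 scale in members labelled IPKO than in members labelled WT (0.83 to 0.88) and 0.94 higher in matched cells (0.93 to 0.96). Atf3 gave 1.10 and 1.04, and Sftpc -0.01 and -0.01. Trp53 gave -0.01 (-0.24 to 0.22) in members and -0.19 in matched cells, and Cdkn1a 0.01 (-0.10 to 0.11) and 0.01. Thbs1 gave -0.06 (-0.22 to 0.11) in members and 0.10 (-0.05 to 0.25) in matched cells. Among Wnt targets Nkd1 was lower in the library labelled IPKO in members (-0.34, -0.41 to -0.28) and in matched cells (-0.35, -0.39 to -0.30), while Sp5 was higher in both (0.45 and 0.55), as was Rnf43 (0.46 and 0.35). With 1 library per label these differences cannot be told apart from differences between libraries.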

How the data were processed

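Single cells were analysed from 2 libraries, 1 labelled WT and 1 labelled IPKO. The authors deposited unnormalized UMI counts, made with Cell Ranger 4.0.0 on GRCm38 (mm10), per the submitters' processing notes; libraries used the 10x Chromium 3' chemistry per the labels' protocols. The position of Axin2 comes from GENCODE for GRCm38. The matrices hold called barcodes only, so free RNA was not measured directly. In AT2 cells 121709524 and 130736352 UMIs were counted.

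The members, gene lists and tests were chosen with earlier results of these data known. Within each library and each 10% of cells by total UMIs, 2 cells with 0 Axin2 UMIs per member were taken, evenly spaced by total UMIs. Counts were summed per library and group and tested with edgeR 4.0.16 (TMM, quasi-likelihood, library as block, Benjamini-Hochberg over 8522 genes, Axin2 left out). Cells are not replicates, and nothing in the labels says how many mice a library holds, so p-values do not cover the spread between mice. With 1 residual degree of freedom the test takes the spread of a gene largely from all genes together. A small p-value or SE therefore does not show that the libraries agree on that gene. For S100a6 the ratios were 0.75 labelled WT and 0.30 labelled IPKO, with an SE of 0.06. Ratios have exact conditional binomial, levels exact Poisson and shares exact Clopper-Pearson intervals at 95%. Fold changes of a list are given as counts and medians, with no set test. Named genes had at least 20 CPM, an adjusted p under 0.05 and the same sign in both libraries, as the 12 highest and 12 lowest, leaving out mitochondrial, ribosomal protein and unnamed genes; all measured Wnt feedback targets and up to 4 members of each other list were also named. Further list members, and Thbs1, Sprr1a, Traf3ip1, Fam150a, Lamp3 and Trp53, were named after their values were seen. On simulated counts (8477 genes) the test recovered 72.31% of genes changed 1.25-fold and 98.41% of those changed 1.5-fold, with 1 unchanged gene called. Those counts were drawn independently at a fixed dispersion, with the same change in both libraries. Genes held by few cells, such as S100a6, were not simulated, so these rates may not hold for the real counts. Alternatives were DESeq2 1.42.0, other scalings, filters, matching rules and member rules, 13 planned and 4 chosen after seeing the data.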

Additional observations from a re-analysis of the deposited data

Results flagged for a closer look

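Smad5, a BMP signal transducer, was lower in Axin2-positive than in matched cells in the library labelled WT (log2 ratio -0.12) and higher in the library labelled IPKO (0.11), with counting intervals on opposite sides of 0. A split of raw ratios around 0, at much smaller sizes, was seen for Sftpa1 (-0.0096 and 0.0043), mt-Co2 (-0.014 and 0.0091), mt-Nd2 (-0.015 and 0.013), mt-Co3 (-0.018 and 0.016) and mt-Cytb (-0.018 and 0.018). The raw ratios of all genes had medians of 0.038 labelled WT and 0.036 labelled IPKO. Sftpa1 and these mitochondrial genes lay below the medians in both libraries, while Smad5 lay on opposite sides of them. None of these differences between the libraries was tested.

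Barcodes that passed the gene and mitochondrial limits but not the limits for AT2 cells also held Axin2, at 15.5 CPM in the library labelled WT and 19.5 CPM in the library labelled IPKO. These levels lie near those of the AT2 cells, and the barcodes had median depths of 4898 and 4961 UMIs.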

How the results depend on the processing

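The number of genes called depended on the processing more than their direction did. In every other setting at least 50 of the 55 higher and 175 of the 179 lower genes were tested and kept their sign. All settings draw on the same libraries and several refit the same sums, so a kept sign or call is not a separate check. Against 55 higher and 179 lower, DESeq2 called 1 and 13, no filter on low counts 17 and 29, and the fit with no replicate block 0 and 0. Using all negative cells weighted to the depth groups gave 120 and 304. Members chosen at 5000 UMIs gave 18 and 34, a mitochondrial limit of 10% gave 16 and 62, and leaving out the highest 20% by transitional share gave 29 and 80. Fewer genes were called lower with Sftpc left out (73) and without the highest 5% of UMIs (116), and more were called higher with at least 10000 UMIs (102) and without cells holding other cell type markers (93). Of the settings chosen after seeing the data, at least 2 Axin2 UMIs gave 95 lower, the lower part of early-response share 2 and 4, matching on genes detected 12 and 17, and total UMIs 399 and 30. Of the called genes, 8 higher and 16 lower were called the same way in at least 13 of the 17 settings. Higher calls were 23.5% of all calls, and between 7.14% and 93.0% elsewhere among settings with calls. The sign of 7 genes called higher and 7 called lower turned in at least 1 setting. Among genes named here it turned for S100a6 (-0.15 with members chosen at 5000 UMIs, -0.60 with at least 2 Axin2 UMIs), Sprr1a (-0.24 and -2.29), Il33 (0.012 with members chosen at 5000 UMIs), Krt8 (-0.0058) and Krt18 (-0.0013) without the highest 20% by transitional share, and mt-Co1 (0.0044 under total UMIs). For Krt8 and Krt18 the cells left out were chosen by a list that holds both genes, which itself narrows their differences. Raw ratios within 1 library, labelled WT and then labelled IPKO, lay on opposite sides of 0 for Ifi27 (0.036 and -0.050), Sftpd (-0.021 and 0.0080), Sftpa1 (-0.0096 and 0.0043), mt-Atp6 (-0.012 and 0.0061), mt-Co1 (-0.0015 and 0.010), mt-Co2 (-0.014 and 0.0091), mt-Co3 (-0.018 and 0.016), mt-Cytb (-0.018 and 0.018) and mt-Nd2 (-0.015 and 0.013). All of these values lay below the median ratio of their library, 0.038 labelled WT and 0.036 labelled IPKO. The causes were not tested. The share of Axin2-positive cells fell to 6.59% and 7.53% after thinning, and the Axin2 level was 17.5 and 20.5 CPM with Sftpc left out of the totals. Counts without either library could not be fitted, since no residual degree of freedom is left. Depth limits the group itself: about 4 in 5 members rest on 1 UMI.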
